A study of Homo sapiens with 6 samples.

Results

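The genes described here are 58 neighbours in the distal part of 12q24, the end of the long arm of human chromosome 12. They were chosen because the region was lower in the RNA libraries labelled BMAL1 knockout than in those labelled control, so the difference between these groups selected the list. Every value of a member in that contrast is therefore a description. Where members are counted past a threshold of the fit over all loci, the count is no test of the list or of its genes. The 58 members are part of a table of 22354 loci. Of these, 57 members and 14860 loci in all passed the filter on low counts. On hg38 the members span chr12:116910950-131945896, from the start of FBXW8 to the end of PUS1.

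The study asked whether loss of the clock gene BMAL1 promotes senescence of thyroid cells. RNA was sequenced from 6 libraries of HTori-3.1, an immortalised line of human thyroid epithelial cells, with 3 libraries in each group. The knockout cells received lentivirus with Cas9 and a guide RNA against BMAL1, were selected with puromycin and were grown from single clones. The number of clones was not given in the sources used here, so loss of BMAL1, the passage through Cas9 and selection, and the history of a clone cannot be told apart. Both groups were exposed to etoposide, a drug that traps topoisomerase II on broken DNA, at 2 μM. In the methods its purpose is to induce senescence. The sample labels give 12 h of exposure and the methods give 24 h. Nothing in the labels says that the replicates were separate cultures, so p-values measure the spread between these libraries, which may be technical.

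Total counts were 26893063, 27029060 and 28513703 in control replicates 1 to 3, and 43148059, 29860233 and 43563391 in knockout replicates 1 to 3. Knockout replicate 1 stood apart from the other libraries of its group. Its counts differed from those of knockout replicates 2 and 3 by 31 and 45 times the variance expected from counting, against 7.43 times between knockout replicates 2 and 3 and 5.41 to 14.5 times between control libraries. Medians of the members by position are given with and without it where they are described. So are members that this library moved by more than 0.10 or across 0 on the log2 scale. Medians by role are given with all libraries only.

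BMAL1, the target of the guide, went against the label. Its level was 11.3, 12.2 and 14.6 CPM (counts scaled to a common library total after TMM normalization) in the control libraries and 17.9, 19.7 and 19.4 CPM in the libraries labelled knockout. On the log2 scale the groups differed by 0.58, with a standard error (SE) of 0.11 and a Benjamini-Hochberg adjusted p = 0.0237 in edgeR's quasi-likelihood test. Leaving out 1 library at a time gave an adjusted p from 0.0153 to 0.129, which passed 0.05 only when the library omitted was control replicate 3 or knockout replicate 1. A small insertion or deletion made by Cas9 need not lower the transcript. The paper's own check of the knockout is at the protein level, a western blot of BMAL1 in control and knockout lines. That blot was not analysed here. Below, "knockout" stands for the label of these libraries, and each log2 fold change is knockout over control.

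Distal 12q24 is a gene-rich stretch whose genes have no single shared function. Its products include subunits of complexes whose other subunits are mostly encoded elsewhere in the genome, such as the anaphase-promoting complex, the SIN3 corepressor, the vacuolar proton pump and RNase P. RNA counts give the level of each transcript and do not measure the number of DNA copies of a segment.

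The label of the list, a joint shift to lower levels, held for the members from CIT to PUS1 and not for those nearer the centromere. Among the 57 members tested, 50 had a log2 fold change under 0, which is 87.7% of them, against 47.7% of the 14860 loci tested. Their median log2 fold change was -0.24, against 0.01 for all loci. The first 10 members, from FBXW8 to PRKAB1, had a median of 0.03 over the 9 that were tested, and 4 of these 9 were lower. The 48 members from CIT to PUS1 had a median of -0.28, which is 82.2% of the control level, and 46 of the 48 were lower. The exceptions were DYNLL1 at 0.10 and P2RX4 at 0.05. The division at CIT was placed after the values had been seen. Without knockout replicate 1 the medians were -0.01 for the first members, now 10, and -0.25 for the 48 from CIT onward, of which 44 were lower.

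**Figure D1:**
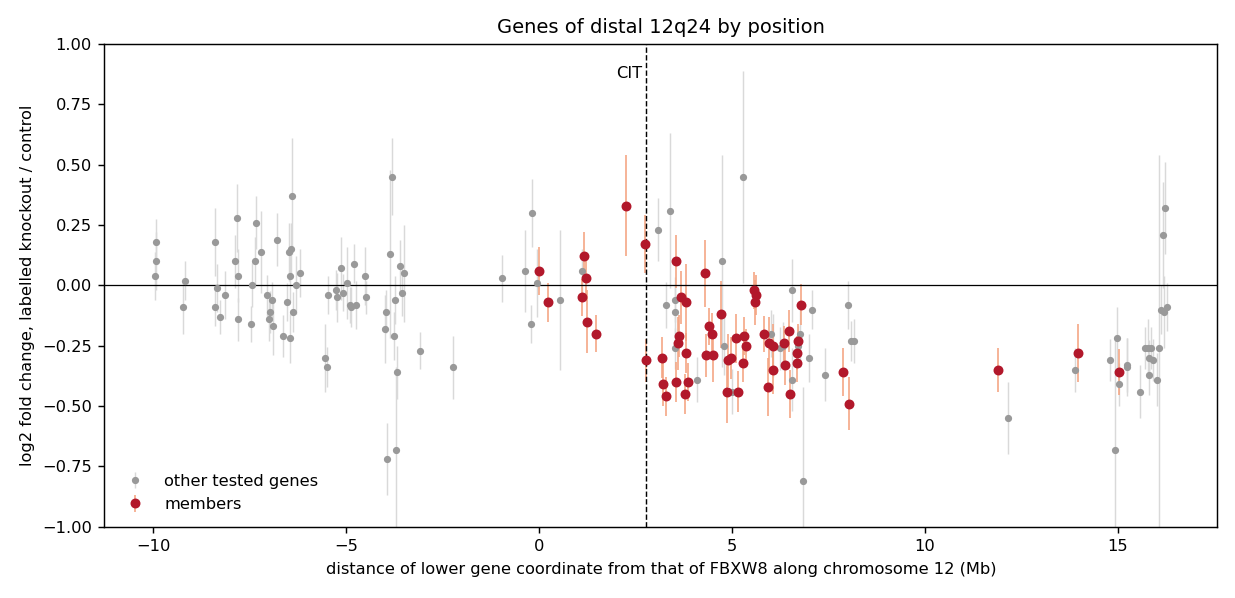
Log2 fold change of tested genes against the distance of the lower coordinate of each gene from that of FBXW8, in megabases along chromosome 12; bars are 1 standard error of the edgeR fit. Red points are members, grey points are other tested genes, 6 of which lie beyond the axis. From CIT onward, its lower coordinate marked by the dashed line, 46 of 48 members lie under 0.

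For 35 of the 57 members every knockout library had a lower CPM than every control library, and 34 of these 35 lay between CIT and PUS1. Over all loci tested this share was 11.5%. An adjusted p under 0.05 in the lower direction was reached by 8 members in edgeR, against 1.36% of all loci in this direction and 2.37% in either. Since the list was chosen on this contrast, nothing is read from these counts or shares, here or under other settings. The number of members past this threshold depended on single libraries more than their fold changes did. It was 17 without knockout replicate 1, 2 without knockout replicate 2, 5 without knockout replicate 3 and 2 without control replicate 3, where 360 of 15045, 86 of 14977, 146 of 15012 and 78 of 15130 loci in all were called lower. Without control replicate 1 or control replicate 2 it was 0 in edgeR, where 75 of 15130 and 65 of 15131 loci were called lower, with 27 and 28 members lower at an unadjusted p under 0.05, a level reached in that direction by 5.43% and 5.25% of all loci in these 2 fits, and with all libraries DESeq2 gave 22, while it called 379 loci lower in all. The median log2 fold change lay between -0.26 and -0.23 across these 6 fits.

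The shift was seen in every knockout library. For each member, the mean log2 CPM of the control libraries was subtracted from its log2 CPM in each library. From CIT to PUS1 the median of these differences was 0.01, 0.02 and -0.04 in control replicates 1 to 3 and -0.29, -0.25 and -0.25 in knockout replicates 1 to 3. The knockout libraries placed 39, 40 and 43 of the 48 members under every control library, against 33.7%, 28.4% and 26.8% of the 13485 annotated loci compared in this way. For the members from FBXW8 to PRKAB1 the medians in the knockout libraries were -0.05, 0.02 and 0.04. Over all annotated loci they were 0.01, 0.01 and 0.00. The RNA is from bulk cultures, so fewer cells that express a gene and less RNA per cell cannot be told apart.

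**Figure D2:**
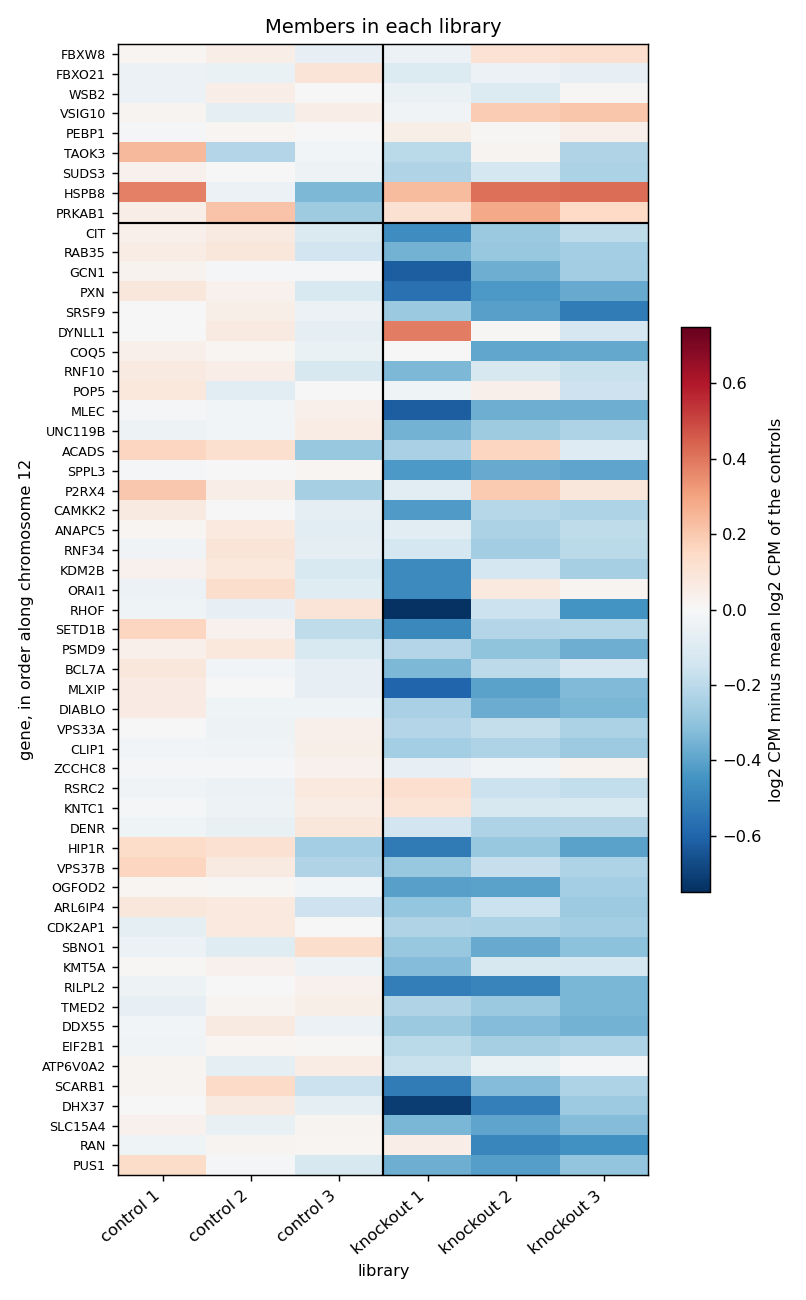
Log2 CPM of each of the 57 tested members minus its mean over the control libraries, in each of the 6 libraries; genes are in order along chromosome 12 and the colour scale stops at 0.75. Below the horizontal line, which lies just before CIT, the 3 knockout columns are mostly blue, with median values of -0.29, -0.25 and -0.25.

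Along chromosome 12 the tested genes were read in runs of 10 neighbours, members and other genes together. The 62 runs that lie before the first member had medians between -0.15 and 0.11. The run from FBXW8 to HSPB8 had a median of -0.01. The next, from PRKAB1 to TRIAP1, holds the step and had a median of -0.09. From GATC onward the medians were -0.25, -0.22, -0.30, -0.22, -0.26, -0.27, -0.33, -0.33 and -0.26, and the last of these runs ends with ZNF10. Before the block the level was less even in knockout replicate 1, in which the 20 tested genes before FBXW8 had a median difference from control of -0.19, against -0.02 and -0.04 in knockout replicates 2 and 3, and the run from PTPN11 to TPCN1 had the lowest of the earlier medians, -0.15. Distances between genes within the block are uneven, and few genes were tested between DHX37 and SFSWAP, where SLC15A4 and RAN lie.

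PRKAB1 and CIT sit on either side of the step as drawn on the members. They are neighbours on opposite strands, with their 3′ ends 4167 bases apart. PRKAB1 (ENSG00000111725.11, chr12:119667864-119681624, forward strand), the beta-1 subunit of AMP-activated protein kinase, had 22.8, 25.4 and 18.3 CPM in the control libraries and 23.8, 26.7 and 24.3 CPM in the knockout libraries. These ranges overlap. CIT (ENSG00000122966.18, chr12:119685791-119877320, reverse strand), the citron kinase that acts in cytokinesis, had 105, 107 and 94.8 CPM in control and 74.0, 84.1 and 89.5 CPM in knockout, and its groups did not overlap. The tested genes between CIT and GATC that are not on the list did not show a shift of the size seen in CIT. BICDL1, the next tested gene after CIT, was at 0.23 (SE 0.13). SIRT4 was at 0.31 (SE 0.32), and RPLP0, COX6A1 and TRIAP1 had values of -0.08, -0.06 and -0.11.

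The nearest tested genes before FBXW8 were SPRING1, RNFT2 and HRK, with log2 fold changes of -0.16, 0.30 and 0.01. The groups did not overlap for SPRING1, lower in knockout, and RNFT2, higher in knockout, and they overlapped for HRK. FBXW8 itself had 16.5, 16.9 and 15.7 CPM in control and 15.9, 17.6 and 17.8 CPM in knockout, without separation. After PUS1 came EP400, DDX51 and NOC4L, with -0.41, -0.34 and -0.33, of which EP400 alone had groups that did not overlap. PUS1, a tRNA pseudouridine synthase, had 33.3, 30.0 and 27.8 CPM in control and 23.5, 22.8 and 24.7 CPM in knockout. Its groups did not overlap.

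The lower level went on past PUS1 towards the telomere. Of the 18 tested genes there, 15 were lower, with a median of -0.26. Their median differences from control were -0.38, -0.27 and -0.18 in knockout replicates 1 to 3, with 11, 16 and 14 genes under the control mean. POLE, the catalytic subunit of DNA polymerase epsilon, was at -0.26, the checkpoint ligase CHFR at -0.31 and ZNF605 at -0.39, while GALNT9, which had under 1 CPM in every library, was at 1.06. Beyond ZNF605 lie ZNF26, ZNF84, ZNF140, ZNF891, ZNF10 and ZNF268, a cluster of related zinc-finger genes whose reads are hard to tell apart. ZNF84, ZNF891 and ZNF268 had values of -0.10, -0.11 and -0.09, ZNF140 and ZNF10 were at 0.21 and 0.32, and ZNF26 was at -0.26 with an SE of 0.80.

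Inside the block, 36 tested genes were not on the list, and 31 of them were lower, with a median of -0.25. From CIT to PUS1 there were 34 such genes, 30 of them lower, with medians of -0.38, -0.24 and -0.20 in knockout replicates 1 to 3. These genes were not listed as members, but they come from the same contrast and the same segment. OASL, an interferon-induced protein of the oligoadenylate synthetase family, was at 81.9, 86.4 and 75.8 CPM in control and 37.0, 37.1 and 36.1 CPM in knockout. Its value of -1.15 (SE 0.081, adjusted p = 5.15e-05 in edgeR) lay far under those of its neighbours. RFLNA, or refilin A, was close to OASL at -1.05 (SE 0.21, adjusted p = 0.0276 in edgeR). Its levels were low, 3.76, 2.58 and 4.1 CPM in control and 1.85, 1.77 and 1.44 CPM in knockout. CFAP251, a protein of motile cilia, was at -0.44 (SE 0.092, adjusted p = 0.032 in edgeR), within the range of the members.

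Runs as low as these were also found on other chromosomes. Over the genome 1348 runs of 10 tested genes were formed in the same way, and a median of -0.2 or lower, a limit chosen after the values had been seen, was found in 23 of them. Of the 11 complete runs from FBXW8 onward, 9 were that low, and of the 1337 others 14 were, on 8 chromosomes. Chromosome 4 held 5 of these 14 and chromosome 21 held 3. The 5 on chromosome 4 follow one another near its end, from GAK to MAN2B2 (chr4:849276-6623362). Their medians were -0.27, -0.20, -0.31, -0.33 and -0.24 in order of position. By whole chromosome, medians ran from -0.14 on chromosome 21 to 0.12 on chromosome 10, and chromosome 12 had -0.03. No test of the difference between regions was made.

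Translation, RNA processing and tRNA formed the role with most members. All 11 were lower, with a median of -0.25, and the values ran from -0.49 to -0.02. DHX37, a DEAH-box helicase of ribosome assembly, was lowest on the whole list when all libraries were used. It had 77.4, 80.8 and 73.8 CPM in control and 47.2, 54.2 and 64.0 CPM in knockout. GCN1, which activates the eIF2-alpha kinase GCN2 on stalled ribosomes, took the most reads of this role and had 279, 271 and 273 CPM in control and 179, 213 and 229 CPM in knockout. In both genes every knockout library lay under every control library, and knockout replicate 1 was lowest. SRSF9, a splicing factor, was at -0.40 (SE 0.082) and shares 43.6% of its exon bases with GATC on the opposite strand. EIF2B1, the alpha subunit of the exchange factor that GCN2 signalling restrains, had -0.23 (SE 0.072), and DDX55, another helicase of ribosome assembly, had -0.32 (SE 0.081). ZCCHC8, a subunit of the nuclear exosome targeting complex, was nearest to 0, with 46.9, 46.8 and 48.3 CPM in control and 45.4, 46.5 and 48.3 CPM in knockout. POP5, a subunit of RNase P, and RSRC2, an arginine/serine-rich protein, were close to it at -0.05 and -0.07. Without knockout replicate 1, RSRC2 was at -0.18, ZCCHC8 at 0.00, DHX37 at -0.39 and GCN1 at -0.31. DHX37 was then no longer lowest, since RAN was at -0.48, SRSF9 at -0.47, and PXN and RILPL2 at -0.41.

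Vesicle traffic and lysosome genes were all lower as well, 10 of 10, with a median of -0.29. RILPL2, an effector of Rab GTPases at cilia, had 15.1, 15.6 and 15.9 CPM in control and 10.8, 11 and 12.2 CPM in knockout. MLEC, or malectin, which binds newly made glycoproteins in the endoplasmic reticulum, had 378, 377 and 392 CPM in control and 249, 297 and 296 CPM in knockout. Both had log2 fold changes of -0.45 and no overlap between groups. HIP1R, which links clathrin coats to actin, had -0.42 (SE 0.12), and SPPL3, an intramembrane protease that releases Golgi glycosyltransferases, had -0.40 (SE 0.078). RAB35, UNC119B, TMED2, VPS37B and VPS33A lay between -0.30 and -0.21. ATP6V0A2, the a2 subunit of the vacuolar proton pump, was least lowered, with 37.5, 35.2 and 38.4 CPM in control and 32.9, 35.7 and 36.7 CPM in knockout, and its groups overlapped.

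The 7 chromatin genes moved in the narrowest range, from -0.33 to -0.19, with a median of -0.24. In all 7, each knockout library lay under each control library, against 11.5% of all loci tested. Since the list was chosen on this contrast, nothing is read from this count. SBNO1, a homologue of the Drosophila strawberry notch protein, took the most reads and had the lowest value, with 113, 110 and 128 CPM in control and 95.9, 89.9 and 94.5 CPM in knockout. SETD1B, a histone H3K4 methyltransferase, had -0.31 (SE 0.11), and KDM2B, which binds CpG islands and demethylates H3K36, had -0.29 (SE 0.11). CDK2AP1, a subunit of NuRD, and BCL7A, a subunit of BAF remodellers, had -0.24 and -0.22. KMT5A, which places a single methyl group on H4K20, had 47.6, 48.3 and 46.1 CPM in control and 37.8, 43.5 and 43.1 CPM in knockout. SUDS3, a subunit of the SIN3 corepressor, is the only chromatin gene before CIT, and its 62.9, 61.8 and 60.1 CPM in control stood above 52.6, 56.3 and 52.2 CPM in knockout. No other tested member before CIT had groups that did not overlap.

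All 6 members that act in metabolism and membrane transport were lower, with a median of -0.35. MLXIP, the glucose-responsive transcription factor MondoA, was lowest when all libraries were used. It had 141, 135 and 129 CPM in control and 89.5, 102 and 107 CPM in knockout. SCARB1, the HDL receptor, had -0.36 (SE 0.10), and SLC15A4, a lysosomal transporter of histidine and peptides, had -0.35 (SE 0.09). OGFOD2, which shares 36.1% of its exon bases with ABCB9, had -0.35 as well. COQ5, a methyltransferase of coenzyme Q synthesis, was low only in knockout replicates 2 and 3, at 25.7 and 25.8 CPM, while knockout replicate 1 had 33.7 CPM and control had 34.5, 33.9 and 32.5 CPM. Its log2 fold change was -0.24 with knockout replicate 1 and -0.39 without it. Without that library MLXIP was at -0.37, so COQ5 was then lowest of this role. ACADS, the short-chain acyl-CoA dehydrogenase, had 6.37, 6.17 and 4.68 CPM in control and 4.80, 6.35 and 5.32 CPM in knockout, ranges that overlap, and its value turned from -0.07 to 0.01 without knockout replicate 1.

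Genes of mitosis and cytokinesis numbered 4, all lower, with a median of -0.22. Next to CIT, described above, RAN had the most reads. RAN, the GTPase of nuclear transport and spindle assembly, had 497, 517 and 514 CPM in control, 362 and 371 CPM in knockout replicates 2 and 3, and 528 CPM in knockout replicate 1. The value for RAN was -0.28 (SE 0.12) with knockout replicate 1 and -0.48 without it. Processed pseudogenes that resemble RAN may make its counts less certain, which was not tested. ANAPC5, a subunit of the anaphase-promoting complex, had -0.17 (SE 0.078). KNTC1, the ROD subunit of the RZZ complex at kinetochores, had 103, 102 and 109 CPM in control and 112, 96.0 and 96.5 CPM in knockout, again with knockout replicate 1 highest, and its value was -0.04 with that library and -0.12 without it.

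Ubiquitin and proteasome genes were divided by position. PSMD9, an assembly chaperone of the proteasome, had 48.6, 50.0 and 43.8 CPM in control and 40.7, 38.5 and 36.7 CPM in knockout. RNF10, a RING-finger ligase with the most reads of this role, had 122, 120 and 107 CPM in control and 91.9, 107 and 103 CPM in knockout. With RNF34 at -0.20, these 3 lie beyond CIT and had a median of -0.21. The adaptors before CIT, FBXW8 of the CUL7 ligase, FBXO21 and WSB2, had 0.06, -0.07 and -0.05.

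Calcium, kinase and stress signalling had values on both sides of 0 before CIT and beyond it. Before CIT, PEBP1, the Raf kinase inhibitor protein, had 101, 103 and 102 CPM in control and 105, 103 and 105 CPM in knockout. HSPB8, a small heat shock protein that works with BAG3, had the highest value on the list, 0.33 (SE 0.21), from 2.46, 1.83 and 1.5 CPM in control and 2.22, 2.52 and 2.53 CPM in knockout, ranges that overlap. TAOK3, a kinase upstream of MAP kinases, had -0.15 (SE 0.13). Beyond CIT, DIABLO, the mitochondrial antagonist of inhibitor of apoptosis proteins, had 49.5, 46.2 and 46.4 CPM in control and 40, 36.5 and 37.3 CPM in knockout, without overlap. CAMKK2, a kinase upstream of AMP-activated protein kinase, had -0.29 (SE 0.088), while PRKAB1, a subunit of that kinase on the near side of the step, had 0.17 (SE 0.12). ORAI1, the pore of the store-operated calcium channel, had 14.3, 16.1 and 13.8 CPM in control and 10.6, 15.4 and 14.9 CPM in knockout. It was low in knockout replicate 1 alone, and its value turned from -0.12 to 0.04 without that library. P2RX4, an ATP-gated channel, had 0.05, and 0.12 without that library. TESC, the calcium-binding protein tescalcin, did not pass the filter, with 7, 10 and 13 counts in control and 10, 8 and 6 counts in knockout.

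Of the 5 genes of adhesion, cytoskeleton and cell surface, 3 were lower. PXN, the focal adhesion protein paxillin, took the most reads and had 277, 267 and 242 CPM in control and 177, 194 and 201 CPM in knockout. CLIP1, the microtubule plus-end protein CLIP-170, had -0.25 (SE 0.069). The dynein light chain DYNLL1 had 168, 175 and 160 CPM in control and 218, 169 and 154 CPM in knockout, so that knockout replicate 1 alone lay above every control, and its value turned from 0.10 to -0.06 without that library. VSIG10, an immunoglobulin-domain protein before CIT, had 20.1, 19.0 and 20.6 CPM in control and 19.5, 22.7 and 22.9 CPM in knockout.

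**Figure D3:**
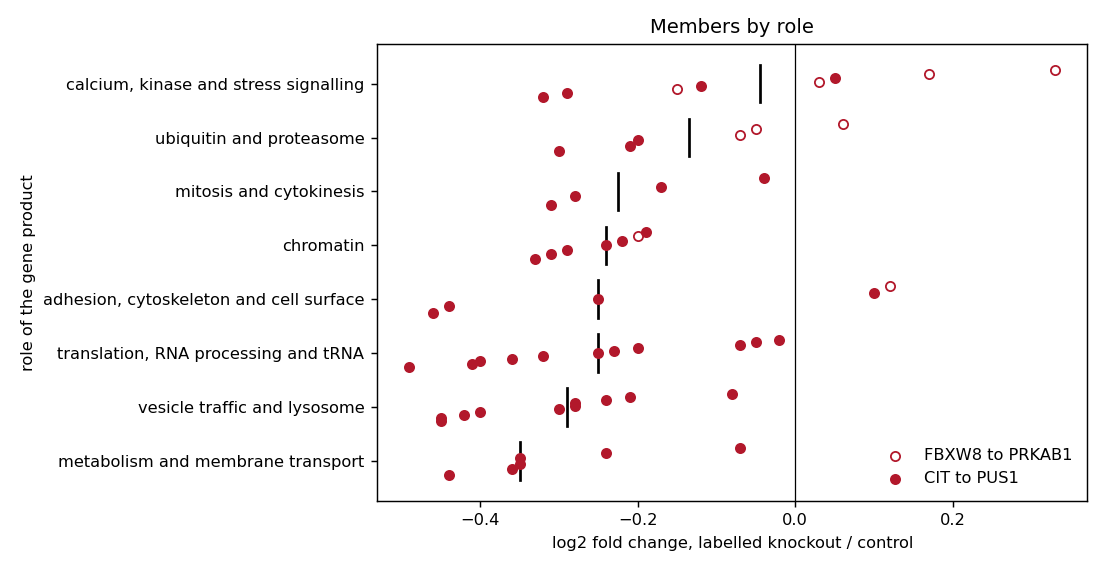
Log2 fold change of the 57 tested members by the role of the gene product; each point is a gene, filled from CIT to PUS1 and open from FBXW8 to PRKAB1, and the vertical bar is the median of the role. The open points lie at -0.20 or above. With all libraries, medians run from -0.35 in metabolism and membrane transport to -0.04 in calcium, kinase and stress signalling. The sign of the last median depends on knockout replicate 1, without which ORAI1 turned from -0.12 to 0.04.

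When the roles were read from CIT to PUS1 alone, their medians came closer together. They were -0.35 for metabolism and membrane transport, -0.34 for adhesion, cytoskeleton and cell surface, -0.29 for vesicle traffic and lysosome, -0.26 for chromatin and -0.25 for translation, RNA processing and tRNA. Mitosis and cytokinesis had -0.22, ubiquitin and proteasome -0.21, and calcium, kinase and stress signalling -0.20. The last of these depends on knockout replicate 1. Without that library its genes were at 0.12 (P2RX4), 0.04 (ORAI1), -0.23 (CAMKK2) and -0.36 (DIABLO). No role was tested against another.

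The spread among the 48 members from CIT onward was a standard deviation of 0.139 in log2 fold change, against a median standard error of 0.088 for a single gene. Their middle values were between -0.36 and -0.20. In 3 equal groups of these members by mean CPM the medians were -0.24, -0.29 and -0.28 from the lowest to the highest, and in 3 by exon length they were -0.23, -0.34 and -0.27. Levels per kilobase of exon, the scale on which genes can be compared, ran from 0.15 CPM for TESC to 99.6 CPM for RAN over all members.

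Base composition moved with the result in a single library. In the 16 members from CIT onward with the highest exon GC content, 54.5% to 65.6%, the median difference from control was -0.48 in knockout replicate 1 and -0.25 and -0.26 in knockout replicates 2 and 3. All annotated loci in that GC range had medians of -0.12, 0.03 and 0.03 in these libraries. In the 16 with the lowest GC content, 39.2% to 46.7%, the members had -0.19, -0.24 and -0.23, and all loci in that range had 0.09, 0.00 and -0.01. With the trend of each library with exon GC content removed, the median over all 57 members was -0.23, and 25 members were lower at an adjusted p under 0.05 in edgeR, in a fit that called 568 of the 14860 loci lower and 474 higher. Whether base composition has a part in the shift was not tested further.

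Exons of 34 of the 58 members share bases with another annotated gene, and the sources used here do not say whether counting used strand, so reads of such pairs cannot be told apart. Members that overlap each other are COQ5 and RNF10 by 79 bases, RNF34 and KDM2B by 439 bases, and DDX55 and EIF2B1 by 538 bases, so these pairs are not fully separate measurements. ARL6IP4 shares 57.2% of its exon bases with ABCB9. The 23 tested members without shared exon bases had a median of -0.20, and 21 of them were lower.

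Promoters were read because the members move together and BMAL1 binds the E-box CACGTG as a dimer with CLOCK. RefSeq windows on GRCh38.p14 were found for 49 of the 58 members, 67 windows in all. CACGTG, which reads the same on both strands, was present in the 250 bases before the start in 7 of the 67 windows, or 10.4%, and in 6.34% of all 35116 windows. The 7 windows belong to FBXW8, MLEC, SPPL3, PSMD9, VPS37B, SBNO1 and RAN, on both sides of the step. A match of these letters is a description of the sequence and not a binding site. The windows of PRKAB1 and CIT are shown for the genes on either side of the step, and those of SPPL3 and SBNO1 for lowered genes that hold the motif. They lie at chr12:119667883-119668132 on the forward strand (PRKAB1) and, on the reverse strand, at chr12:119877321-119877570 (CIT), chr12:120904359-120904608 (SPPL3) and chr12:123364848-123365097 (SBNO1). Each is the 250 bases upstream of a RefSeq start, written 5′ to 3′ along the gene, with CACGTG in capitals. These starts need not be those of the gene coordinates given here: the windows of PRKAB1 and MLEC lie inside the gene as annotated, and those of PSMD9, VPS37B and RAN reach into it.
PRKAB1: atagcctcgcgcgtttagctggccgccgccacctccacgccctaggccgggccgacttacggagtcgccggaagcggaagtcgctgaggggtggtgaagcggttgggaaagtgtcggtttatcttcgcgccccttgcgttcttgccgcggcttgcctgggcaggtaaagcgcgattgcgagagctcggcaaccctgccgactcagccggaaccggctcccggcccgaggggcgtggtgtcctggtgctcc
CIT: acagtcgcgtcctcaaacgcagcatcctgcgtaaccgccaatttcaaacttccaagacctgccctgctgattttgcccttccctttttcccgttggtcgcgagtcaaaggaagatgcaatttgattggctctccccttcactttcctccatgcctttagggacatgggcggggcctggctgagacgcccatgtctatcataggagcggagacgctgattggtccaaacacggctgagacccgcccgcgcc
SPPL3: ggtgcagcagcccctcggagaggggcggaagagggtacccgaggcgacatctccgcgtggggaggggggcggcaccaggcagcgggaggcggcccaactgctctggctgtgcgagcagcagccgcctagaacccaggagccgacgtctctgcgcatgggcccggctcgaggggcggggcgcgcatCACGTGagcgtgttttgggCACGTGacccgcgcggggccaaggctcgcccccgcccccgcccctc
SBNO1: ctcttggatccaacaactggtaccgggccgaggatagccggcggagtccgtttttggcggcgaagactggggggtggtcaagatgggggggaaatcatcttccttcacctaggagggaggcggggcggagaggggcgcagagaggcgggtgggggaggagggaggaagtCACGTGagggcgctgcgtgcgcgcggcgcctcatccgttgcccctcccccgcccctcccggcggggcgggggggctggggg

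The PRKAB1 and CIT windows hold no CACGTG, SPPL3 holds 2 and SBNO1 holds 1. The GC content of the windows was 67.6% for PRKAB1, 56.4% for CIT, 74.8% for SPPL3 and 70.8% for SBNO1. SPPL3 had 44.9, 45.1 and 45.8 CPM in control and 33.6, 34.8 and 34.4 CPM in knockout, the tightest separation relative to its spread among the genes shown. FBXW8 holds the motif as well and lay within its control range or just above it.

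The median of the partners of the members that are not on the list was close to 0. A set of 154 genes in 20 complexes and pathways was compared with the 22 members that belong to them. Of 153 partners tested, 80 were lower and 73 higher, with a median of -0.01, while the 22 members, which were chosen on this contrast, had a median of -0.21. One partner, ANAPC7, lies on 12q24 itself, nearer the centromere than the members, and was at -0.07; the others lie outside that band. At an adjusted p under 0.05 in edgeR, 1 partner rose and 1 fell, where 2.37% of all loci tested were called in either direction. At an unadjusted p under 0.05 in edgeR there were 7 partners in each direction, and 7.76% of all loci were lower at that level.

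**Figure D4:**
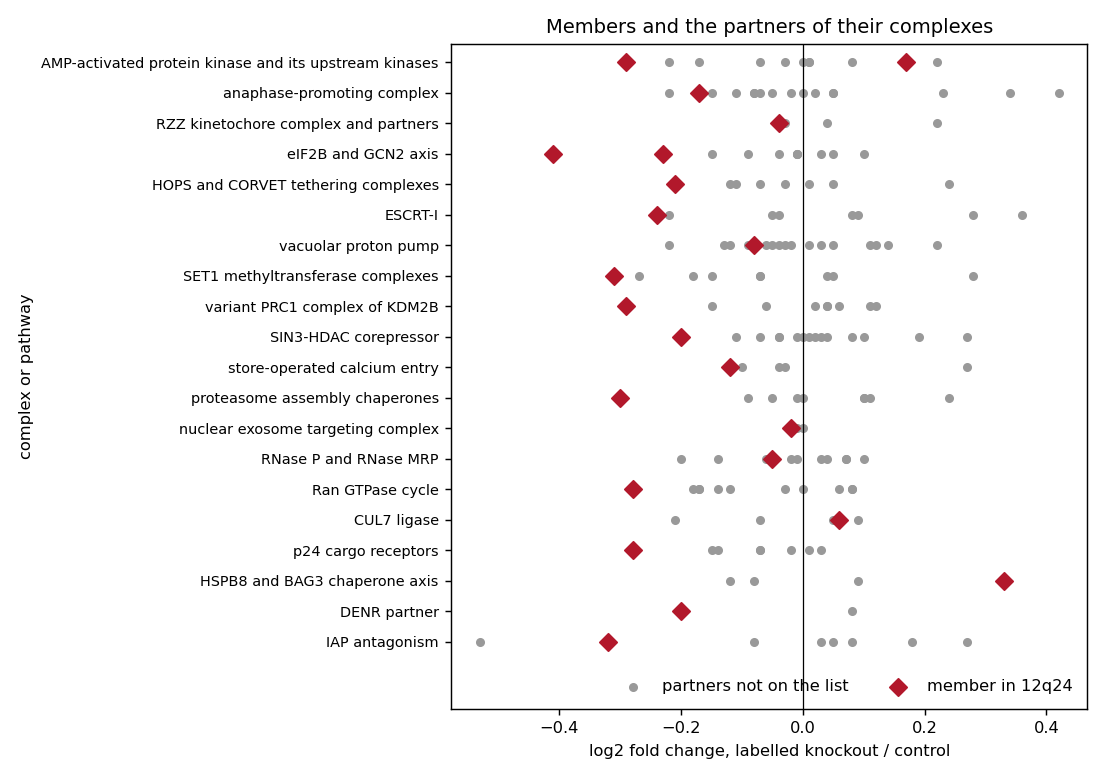
Log2 fold change of members (red diamonds) and of their partners not on the list (grey points) for each of 20 complexes or pathways. Partners spread around 0, with a median of -0.01; the members were chosen on this contrast.

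In the eIF2B and GCN2 axis, GCN1 and EIF2B1 had -0.41 and -0.23, and the 9 partners lay between -0.15 and 0.10. The 14 partners of SUDS3 in the SIN3 corepressor lay between -0.11 and 0.27, with SUDS3 at -0.20. PSMD9 was at -0.30, and the 8 other assembly chaperones of the proteasome lay between -0.09 and 0.24. For KDM2B, at -0.29, the 8 partners of the variant PRC1 complex lay between -0.15 and 0.12. The 10 partners of the RAN cycle had a median of -0.07 and the 7 other p24 cargo receptors, with TMED2 at -0.28, also had -0.07. ATP6V0A2, POP5, KNTC1 and ZCCHC8, at -0.08, -0.05, -0.04 and -0.02, lay within or next to the range of their partners. So did lower members: DIABLO at -0.32, ANAPC5 at -0.17 and VPS37B at -0.24 lay within it, and SETD1B at -0.31 and ORAI1 at -0.12 next to it.

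ANAPC16, a subunit of the anaphase-promoting complex encoded on chromosome 10, had 71.8, 70.5 and 68.2 CPM in control and 101, 90.4 and 89.7 CPM in knockout. It rose by 0.42 on the log2 scale (SE 0.079, adjusted p = 0.0183 in edgeR). The tested genes of chromosome 10 had a median of 0.12, the highest of the chromosomes compared, with 25.2% of them lower. Whether the place of ANAPC16 on that chromosome has a part in its rise was not tested. BIRC3, an inhibitor of apoptosis protein that DIABLO antagonises, lies on chromosome 11 and had 44.1, 44 and 45.7 CPM in control and 34.0, 31.6 and 27.3 CPM in knockout. It fell by 0.53 on the log2 scale (SE 0.096, adjusted p = 0.0163 in edgeR). Each of these calls held in 2 of the 6 fits that left out a library, those without knockout replicate 1 and without knockout replicate 3. In the other fits the adjusted p reached 0.107 for ANAPC16 and 0.082 for BIRC3, while over all 6 the log2 fold changes ran from 0.36 to 0.45 and from -0.60 to -0.44.

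Marker genes of several cell types were read in the same libraries. Of 10 thyroid follicular markers, 3 had a mean of at least 1 CPM, PAX8, FOXE1 and HHEX, while NKX2-1 was at 0 in every library and TG, TSHR and SLC5A5 were under 1 CPM. The summed level of this list was 182, 183 and 212 CPM in control and 141, 158 and 183 CPM in knockout, and PAX8 had the most reads. The 6 epithelial markers, led by KRT8, summed to 2990, 3040 and 2900 CPM in control and 2540, 2480 and 2560 CPM in knockout, with EPCAM and CDH1 near 0. KRT18 fell by 0.50 on the log2 scale (SE 0.075, adjusted p = 0.00587 in edgeR). KRT8 was at -0.28 (adjusted p = 0.0517), while KRT7 and KRT19 were at 0.10 and 0.23. The 9 fibroblast or mesenchymal markers, led by VIM, summed to 2750, 2780 and 2570 CPM in control and 2260, 2440 and 2550 CPM in knockout, and DCN and LUM were at 0 throughout. VIM and COL1A1 were both abundant. VIM was at -0.24 (adjusted p = 0.0857), while COL1A1, PDGFRB and THY1, the other tested genes of this list, were at 0.00, 0.14 and 0.53. The 4 endothelial markers summed to 2.05, 1.83 and 2.21 CPM in control and 1.33, 1.24 and 1.71 CPM in knockout.

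The 5 leukocyte markers summed to 19.3, 19.9 and 17.9 CPM in control and 14.2, 12.5 and 13.1 CPM in knockout. CD68 had the most reads, CD3E was at 0 in every library, and PTPRC fell by 1.42 on the log2 scale (SE 0.15, adjusted p = 0.00107 in edgeR). CD14, at about 1 CPM or less in every library, was at 0.97 (adjusted p = 0.343). The epithelial, mesenchymal, endothelial and leukocyte sums were lower in every knockout library than in any control library, and the thyroid sums overlapped. Of all loci tested, 11.5% were separated in this direction. The mesenchymal sums nearly met, at 2550 CPM in knockout replicate 3 and 2570 CPM in control replicate 3. Each sum is weighted towards its most abundant genes, and KRT7, KRT19, PDGFRB and CD14 went the other way. The part of these markers in the shift of 12q24 was not tested.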

How the data were processed

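RNA-seq counts of 6 HTori-3.1 libraries were used. The authors filtered the reads for adapters and base quality, aligned them to hg38 and deposited raw counts per locus, in which only unique alignments were used, with no normalization or pooling. The submitters' processing notes name fastp 0.20.1 and HISAT2 2.0.4; annotation and strandedness are not given in the sources used here. Each column was assigned to its sample by title. Coordinates, exons and overlaps were taken from GENCODE v44, in which 20018 of the 22354 loci were found; 2310 others were assembled from reads.

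The groups were compared in edgeR 4.0.16 (R 4.3.3) with TMM normalization, the default filter on low counts, a robust quasi-likelihood fit and Benjamini-Hochberg adjustment over 14860 loci, two-sided, with a threshold of 0.05. The biological coefficient of variation was 0.108. Depth was 26893063 to 43563391 counts per library. The variance between libraries of a group was 5.41 to 45 times that expected from counting. Fits were tested on simulated data. Promoter windows were from RefSeq.

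Members, role groups, partners and markers were chosen with earlier results of these data known. Named genes were the lowest, the highest and the one with most reads of each role, the 3 nearest genes on each side, called genes inside the block (up to 8), called partners (up to 12) and BMAL1; a few others are named beside them, and some values are not reported here.

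The alternatives tried were size factors by the median of ratios, scaling by library size only, no filter, at least 10 counts in every library, DESeq2 1.42.0, a replicate block, each library left out, removal of the trend with exon GC content (known for 91.4% of loci kept), thinning to the smallest total, and removal of loci with shared exons.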

Additional observations from a re-analysis of the deposited data

How the results depend on the processing

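The median of the members from CIT to PUS1 stayed under 0 in all 15 alternatives. The median over all members was -0.24 and stayed within 0.01 of it in most fits; it was -0.21 with library size only and -0.20 without loci whose exons overlap another gene. From CIT to PUS1 these settings gave -0.25 and -0.24. Before CIT the median was 0.06 with library size only, 0.00 with no filter, -0.01 with DESeq2 and -0.16 without overlapping loci, where only 3 of its genes, PEBP1, TAOK3 and SUDS3, were left, so its sign depends on the setting. Without overlapping loci only 23 members were left, of which 21 were lower, 19 of them from CIT to PUS1, and 12 had groups that did not overlap; this smaller list is the cause of the lower counts. BMAL1 could not be fitted there, since its exons overlap another gene.

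The number of members called lower, 8, was 5 with library size only, 22 with DESeq2, 25 with the GC trend removed and 5 without overlapping loci. Over all loci, 150 were called higher and 202 lower, against 175 and 155 with library size only. DESeq2 called 256 and 379, removal of the GC trend 474 and 568, and the fit without overlapping loci 108 and 129. At least 10 counts in every library gave 185 and 218. Among the partners 1 was called in each direction; DESeq2 called 1 and 2, the fit without the GC trend 2 and 3, and the fit without overlapping loci 0 and 0 in edgeR. ANAPC16 and BIRC3 were not fitted there, since their exons overlap another gene. The cause of the other differences was not tested.

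When 1 library at a time was left out, the median ran from -0.26 to -0.23 over all members, from -0.29 to -0.25 from CIT to PUS1 and from -0.02 to 0.04 before CIT. Members called lower numbered 0 to 17, loci called higher 39 to 323 and called lower 65 to 360, partners called higher 0 to 1 and lower 0 to 3. The log2 fold change of BMAL1 ran from 0.50 to 0.69. The counts were highest without knockout replicate 1, at 17 members and at 323 and 360 loci, and lowest for loci without control replicate 2.

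The replicates share only a number, since correlations of deviations between same-numbered libraries were -0.0896, -0.0517 and -0.00471 and no library correlated best with its own number. A replicate block gave 2 members called lower, 97 loci higher and 119 lower, and 0 partners higher and 1 lower.

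Of the single genes under the alternatives, only BMAL1, ANAPC16 and BIRC3 were held to the threshold. BMAL1 missed it in 4 fits, and ANAPC16 and BIRC3 together in 9. The other genes, members among them, were compared by their log2 fold changes alone, since calls of members are counted above. Of these values, 3 moved by at least the spread between replicates, those of PEBP1 with library size only and with the GC trend removed, and that of ZCCHC8 with the GC trend removed. ZCCHC8 is next to 0, at -0.02, and was at 0.01 with library size only and at 0.00 without knockout replicate 1. Depth limits TESC and other genes near the filter.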
